A study of Mus musculus with 42 samples.

Results

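Eicosanoids are lipid mediators made from arachidonic acid, and 10 genes of their prostaglandin and leukotriene branches were followed through chemical skin carcinogenesis of the mouse. The members were chosen by their gene symbol: Ptgs1, Ptgs2, Ptges, Ptger2, Ptger4, Hpgd, Alox5, Alox5ap, Lta4h and Ltb4r1. Of these, 9 had a probe on each of the 2 array designs, out of 14442 named genes on the first and 17501 on the second, and Ptgs1 had a named probe on neither. The first design carried 9 member probes and the second 13, with a pair of probes each for Ptgs2, Ptges, Hpgd and Lta4h.

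The labelled samples were 6 squamous cell carcinomas, 10 high-risk papillomas, 9 low-risk papillomas and 6 normal skins, or 31 replicates in all, hybridised on the first design. All tumours came from female Sencar mice that were initiated at 7 to 8 weeks of age and given DMBA, a carcinogen that mutates epidermal cells, and TPA, a phorbol ester that promotes tumour growth. Normal skin was untreated adult skin, and its labels give no strain, sex or age, so that treatment and strain cannot be told apart between tumours and skin. Another 10 papillomas whose labels give no risk, from the same kind of mice and treatment, were hybridised on the second design and entered no comparison. What sets high from low risk is not given in the sources used here. Each array set a sample against one universal mouse reference RNA pool, and every level below is a log2 ratio of sample over this pool, in a direction inferred from the values and not stated in the labels, centred on the array's median. The levels of different probes are not comparable with each other. The labels do not say whether the samples of a group came from separate animals. In addition, 6 high-risk and 2 low-risk tumours share their code stem, in pairs, with another tumour of their group. The p-values thus set each difference against the spread between these samples, not between animals.

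Prostaglandin synthesis starts with the cyclooxygenases Ptgs1 and Ptgs2, and Ptges turns their product into prostaglandin E2, which acts through receptors that include Ptger2 and Ptger4 and is inactivated by Hpgd. In the leukotriene branch Alox5, aided by the membrane protein Alox5ap, makes leukotriene A4, which Lta4h hydrolyses to leukotriene B4, the ligand of the chemotactic receptor Ltb4r1. In mouse skin the cyclooxygenase branch is known for its role in promotion by phorbol esters, and leukotriene B4 for the attraction of neutrophils.

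The arrays were not uniform, and their labels name no batch. Arrays held 16286 to 21494 values of 21997 probes. They were clustered by the pattern of empty probes into 5 sets, a number set by choice and not found from the data. These sets partly coincided with the groups. Set E consisted of 4 high-risk papillomas, set B of 6 low-risk ones, and set A of 1 high-risk papilloma with 4 normal skins. Set C held 2 carcinomas, 4 high-risk papillomas and 1 normal skin, and set D held 4 carcinomas, 1 high-risk papilloma, 3 low-risk papillomas and 1 normal skin. Ratios were narrowest in set C, with a median SD of 0.70, against 1.58 in set B and 1.59 in set E. Carcinoma 6 and normal skin 1, both of set C, were nearly identical, with r = 0.984 across probes. Low-risk papilloma 1 is the mean of 2 arrays with opposite dyes, which correlated at only 0.306 across 19899 probes. Keratinocyte markers lay above the reference in all 4 groups, the mean of the 4 markers of 18 that were measured throughout running from 0.54 to 1.38 in carcinomas, 0.42 to 2.53 in high-risk papillomas, 1.03 to 2.55 in low-risk papillomas and 1.46 to 2.63 in normal skin.

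Of the 9 members with a probe, 8 were measured often enough to be tested. Only 3 of their 48 changes over 6 comparisons passed limma's test at an adjusted p under 0.05, and these were of 2 genes. Ltb4r1 was lower in carcinomas than in high-risk papillomas, where 0.0423% of all probes tested were called. It was also higher in high-risk papillomas than in normal skin, where 5.09% were called, and these comparisons share the high-risk values. Lta4h was higher in low-risk papillomas than in normal skin, where 7.65% of probes were called. A further 10 changes had an unadjusted p under 0.05 and are given below with their values.

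The upstream windows of both called genes are shown here with that of Ptgs2, the inducible enzyme of the other branch. They hold the 250 bases before the annotated start of each gene on the plus strand of GRCm38.p6, from RefSeq, 5′ to 3′: chr14:55765712-55765961 for Ltb4r1, chr10:93453146-93453395 for Lta4h and chr1:150099781-150100030 for Ptgs2. Capitals mark matches to the motifs searched on both strands, which here were the GC box GGGCGG, present in Ltb4r1 as its reverse complement, and the C/EBP motif TTGCNNAA.
Ltb4r1: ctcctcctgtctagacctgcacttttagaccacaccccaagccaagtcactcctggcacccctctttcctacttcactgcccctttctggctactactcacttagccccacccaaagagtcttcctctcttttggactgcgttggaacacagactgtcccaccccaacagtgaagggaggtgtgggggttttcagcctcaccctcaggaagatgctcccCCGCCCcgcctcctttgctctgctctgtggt
Lta4h: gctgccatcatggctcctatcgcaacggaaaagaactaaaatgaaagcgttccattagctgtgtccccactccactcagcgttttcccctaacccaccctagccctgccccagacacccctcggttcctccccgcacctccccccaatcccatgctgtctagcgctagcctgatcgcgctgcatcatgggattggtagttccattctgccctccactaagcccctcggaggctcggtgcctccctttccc
Ptgs2: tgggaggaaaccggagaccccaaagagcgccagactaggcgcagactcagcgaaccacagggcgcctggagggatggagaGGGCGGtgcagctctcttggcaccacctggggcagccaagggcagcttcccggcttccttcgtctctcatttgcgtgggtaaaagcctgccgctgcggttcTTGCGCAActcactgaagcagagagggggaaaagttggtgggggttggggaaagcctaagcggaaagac
RefSeq windows were matched for 9 of the 10 members. A GC box lay in 6 of these 9 windows, against 32.7% of 32851 mouse windows of the same length, with the nearest in Ltb4r1 31 bases before the start. The C/EBP motif was found in Ptgs2 alone, 69 bases before its start, and in 9.56% of all windows. The AP-1 motif TGANTCA, the letters TATAAA, the E-box CACGTG and the cyclic AMP element TGACGTCA were in 0 of the 9 windows and in 6.75%, 12.4%, 6.02% and 1.55% of all. Matches are descriptions of letters and not of binding. The windows end at the annotated start, so a motif that lies after it was not searched for.

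Ltb4r1 showed the widest contrasts of the members. In carcinomas it was at -0.70, -0.04, -0.45 and -0.55 in replicates 1 to 4. In high-risk papillomas it was at 3.14, 3.68, 6.00, 4.98, 1.92 and 0.83 in replicates 1 to 5 and 10. Of these, replicates 1 and 2 share a code stem, as do 3 and 5. Low-risk papillomas ran from 0.72 to 3.14 with a median of 1.37 over 9 replicates, and normal skins had 0.05, -0.18, 0.02, 0.09 and 0.23 in replicates 2 to 6. All 15 papillomas with a value thus lay above every measured carcinoma and every measured normal skin. Of these papillomas, 6 low-risk ones were of set B and 4 high-risk ones of set E. Neither set holds a carcinoma or a normal skin. The share of all probes with papillomas so apart from both groups was not computed. The Ltb4r1 probe was empty on 7 replicates, which were the 7 of set C and no other. No level of Ltb4r1 is thus available for carcinomas 5 and 6, high-risk papillomas 6 to 9 and normal skin 1.

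**Figure D1:**
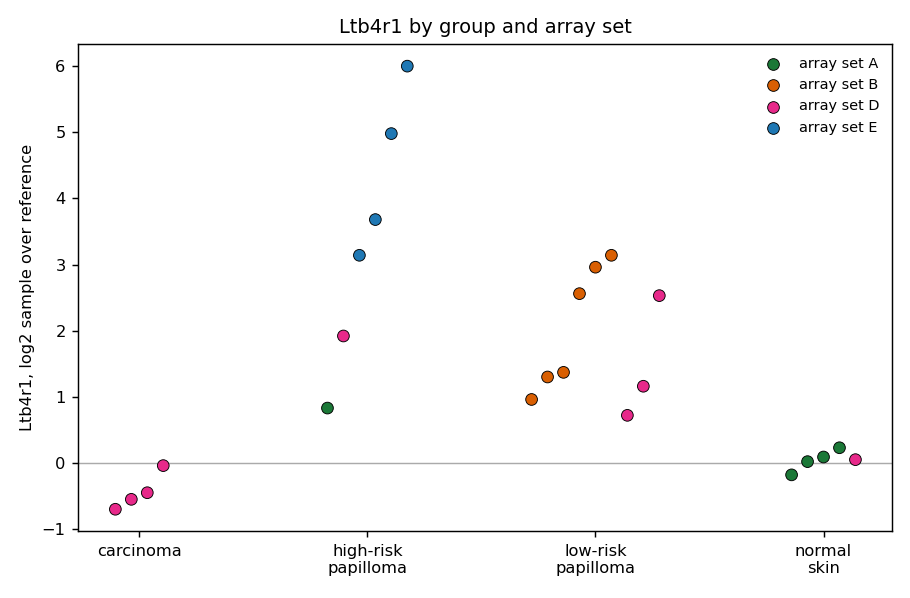
Level of Ltb4r1 (log2 sample over reference, vertical axis) in carcinomas, high-risk papillomas, low-risk papillomas and normal skin, one point per replicate, coloured by array set. The 4 measured carcinomas lie between -0.70 and -0.04, the 15 measured papillomas between 0.72 and 6.00, and the 4 highest high-risk values are those of set E.

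Against high-risk papillomas, Ltb4r1 was 14.5-fold lower in carcinomas (mean -0.43 ± 0.28, SD, n = 4, against 3.42 ± 1.91, SD, n = 6; log2 change -3.86 ± 0.68 SE, limma adjusted p = 0.0285). It was the only one of 8 members called there, where 0.0423% of 18904 probes were called, 0.0212% higher and 0.0212% lower. Its groups did not overlap, which held for 0.772% of probes. The call did not stand when carcinoma 1, 2, 3 or 4 or high-risk papilloma 1, 2 or 4 was left out, with limma adjusted p-values of 0.0547 to 0.128 and changes of -3.99 to -3.55. With a block for the array sets the change was -2.02 ± 0.76 (adjusted p = 1). Within set D, where high-risk papilloma 5 is the lone sample of its group, it was -2.35, a value given without a test.

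Against normal skin, Ltb4r1 rose 10.4-fold in high-risk papillomas (mean 3.42 ± 1.91, SD, n = 6, against 0.04 ± 0.15, SD, n = 5; log2 change 3.38 ± 0.64 SE, limma adjusted p = 0.0039). It was again the one member of 8 called, with 5.09% of probes called (2.64% higher and 2.45% lower), and its groups did not overlap, as was the case for 2.27% of probes. Every one of the 16 fits that left out a replicate kept this call, with changes of 2.87 to 3.90. With a block for the array sets the change was 1.20 ± 0.69 (adjusted p = 0.54), and with the range of database numbers as a block it was 2.83 ± 0.81 (adjusted p = 0.108).

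The other Ltb4r1 changes did not pass the test. In carcinomas against low-risk papillomas, where 1.17% of probes (0.37% higher and 0.799% lower) and 0 of 8 members were called, Ltb4r1 differed by -2.29 ± 0.63 (SE, n = 4 and 9, limma adjusted p = 0.0695), again without overlap, as for 0.989% of probes. In low-risk papillomas against normal skin it differed by 1.81 ± 0.59 (SE, n = 9 and 5, adjusted p = 0.0593) without overlap, as for 1.81% of probes. High-risk papillomas exceeded low-risk ones by 1.57 ± 0.56 (SE, n = 6 and 9, adjusted p = 0.157), and this change was 0.11 ± 0.80 with a block for the array sets. Without high-risk papilloma 10, the only one of set A, it was 2.09 (adjusted p = 0.047), and without low-risk papilloma 10 the change from normal skin had an adjusted p of 0.0498. These comparisons share their groups and are not independent of each other.

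Within set D, the one set that holds all 4 groups, Ltb4r1 was at -0.70 to -0.04 in 4 carcinomas, at 1.92 in the high-risk papilloma, at 0.72 to 2.53 in 3 low-risk papillomas and at 0.05 in the normal skin. In this set 1 sample each stands for high-risk papillomas and normal skin. The 4 high-risk papillomas of set E were at 3.14 to 6.00. Carcinomas of set D differed from its low-risk papillomas by -1.90 ± 0.41 (SE, n = 4 and 3, limma adjusted p = 0.117).

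Ltb4r1 is known from neutrophils and other leukocytes. The mean of the 3 of 20 neutrophil markers measured in every replicate ran from -0.38 to 0.73 in carcinomas, -1.35 to 0.94 in high-risk papillomas, -0.18 to 1.85 in low-risk papillomas and -1.59 to 0.18 in normal skin. Of the 16 neutrophil markers tested, 2 were higher and 1 lower in high-risk papillomas than in normal skin, and none was called between carcinomas and high-risk papillomas. As a description over 24 replicates that share array sets, Ltb4r1 had r = 0.12 with the neutrophil mean and r = 0.38 with the keratinocyte mean. It had r = -0.57 with the mean of 5 of 21 macrophage markers. With the mean of 6 of 22 internal-organ genes it had r = -0.52, and with that of 5 of 9 endothelial markers r = -0.49. The part of these cell types in the Ltb4r1 levels was not tested. In whole tissue, fewer cells of a type and less RNA per cell cannot be told apart.

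Lta4h, the hydrolase that makes leukotriene B4, was 2.30-fold higher in low-risk papillomas than in normal skin (mean 0.40 ± 0.79, SD, n = 7, against -0.80 ± 0.60, SD, n = 6; log2 change 1.20 ± 0.31 SE, limma adjusted p = 0.0158). It was the only one of 8 members called in this comparison, where 7.65% of probes were called, 4.05% higher and 3.61% lower. Its levels had a lowest, median and highest value of -0.27, 0.21 and 0.75 in 6 carcinomas, -0.44, 0.03 and 0.61 in 10 high-risk papillomas, -1.13, 0.49 and 1.27 in low-risk papillomas and -1.39, -0.94 and 0.03 in normal skins. Normal skin was thus lowest on the median, and 1 low-risk papilloma, number 2, lay among the normal skins. Carcinomas exceeded normal skin by 1.00 ± 0.32 (SE, n = 6 each, limma adjusted p = 0.138) and high-risk papillomas by 0.84 ± 0.29 (SE, n = 10 and 6, adjusted p = 0.0849), and neither passed. In carcinomas against normal skin 1.15% of probes (0.249% higher and 0.905% lower) and 0 of 8 members were called, and the ranges of all 8 members overlapped, while 4.01% of probes had no overlap.

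**Figure D2:**
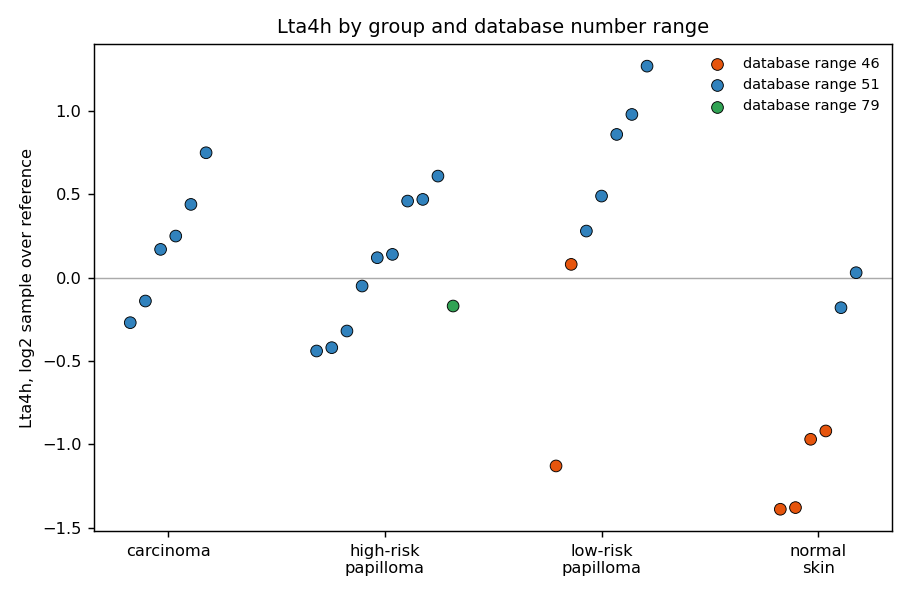
Level of Lta4h (log2 sample over reference, vertical axis) in the 4 groups, one point per replicate, coloured by the first digits of the database number in the labels. The 4 normal skins of range 46 lie at -1.39 to -0.92 and the other normal skins, of range 51, at -0.18 and 0.03. Low-risk papilloma 1, the mean of arrays of different ranges, is coloured as range 46.

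In low-risk papillomas against normal skin, where 7.65% of probes were called, 3 of 16 neutrophil markers were called higher and 1 lower. The median log2 change of these 16 was 0.17, with a range of -2.19 to 5.62. The mean of the 3 of 20 neutrophil markers measured in every replicate had a median of 1.14 in low-risk papillomas and -0.91 in normal skin. Of 18 macrophage markers 1 was called higher and 0 lower, with a median change of -0.39. Over 29 replicates Lta4h had r = 0.49 with the neutrophil mean, r = 0.43 with the macrophage mean and r = -0.36 with the keratinocyte mean, and the part of these cells in its levels was not tested.

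The Lta4h levels also moved with the number under which an array is listed in the submitters' database. In normal skin they were at -1.39 to -0.92 on the 4 arrays numbered from 46 and at -0.18 and 0.03 on the 2 numbered from 51. In low-risk papillomas they were at -1.13 and 0.08 among those listed under range 46 and at 0.28 to 1.27 in the 5 of range 51. The 0.08 is that of low-risk papilloma 1, whose array of range 46 gave -1.15. This array was averaged with its dye-swapped array, titled with a number of another range, which gave 1.22. Within range 51 the difference of low-risk papillomas from normal skin was 0.85 ± 0.34 (SE, n = 5 and 2, limma adjusted p = 0.464). Within range 46 it was 0.64 ± 0.43 (SE, n = 2 and 4, adjusted p = 0.375). That last fit held the averaged value, so it is not a difference within range 46 alone. The call was also lost with the range as a block (0.75, adjusted p = 0.0732), with a block for the array sets (0.60, adjusted p = 0.889) and without normal skin 5 (1.08, adjusted p = 0.0501) or 6 (1.09, adjusted p = 0.0515). Without normal skin 1 the high-risk change was 0.96 and passed (adjusted p = 0.0467). With the range as a block, the changes of high-risk papillomas and carcinomas from normal skin were 0.07 ± 0.28 and 0.20 ± 0.30 (SE).

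The 2 arrays of low-risk papilloma 1 gave Lta4h levels of -1.15 with the reference in Cy5 and 1.22 with the dyes swapped. The same arrays gave 0.45 and 2.06 for Ltb4r1, 0.50 and 1.94 for Ptges, and -0.69 and -2.67 for Ptger4. They differed less for Ptgs2, at -0.97 and -1.29, and for Alox5, at 2.01 and 1.72. Without the swapped array the difference of low-risk papillomas from normal skin in Lta4h was 1.03 (limma adjusted p = 0.0786).

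The enzymes upstream in the leukotriene branch did not pass the test in any comparison. Alox5, the 5-lipoxygenase itself, had a lowest, median and highest level of -0.43, 0.18 and 0.86 in carcinomas, -0.57, -0.02 and 1.63 in high-risk papillomas, -0.18, 0.65 and 1.91 in low-risk papillomas and -0.22, 0.40 and 1.07 in normal skin. Its 3 low-risk values listed under range 46, at 1.33 to 1.91, lay above the 5 of range 51, at -0.18 to 0.66. The 1.91 is that of low-risk papilloma 1, averaged from arrays of different ranges at 2.01 and 1.72. Alox5ap, its membrane partner, ran from -0.09 to 0.64 in carcinomas, -0.25 to 0.52 in high-risk papillomas, -1.46 to 1.30 in low-risk papillomas and -0.10 to 0.85 in normal skin. The groups overlapped for both genes in all comparisons, and none of their 12 changes had an unadjusted p under 0.05. Alox5ap was thus most spread among low-risk papillomas, with an SD of 0.83, against 0.31 to 0.35 in the other groups.

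**Figure D3:**
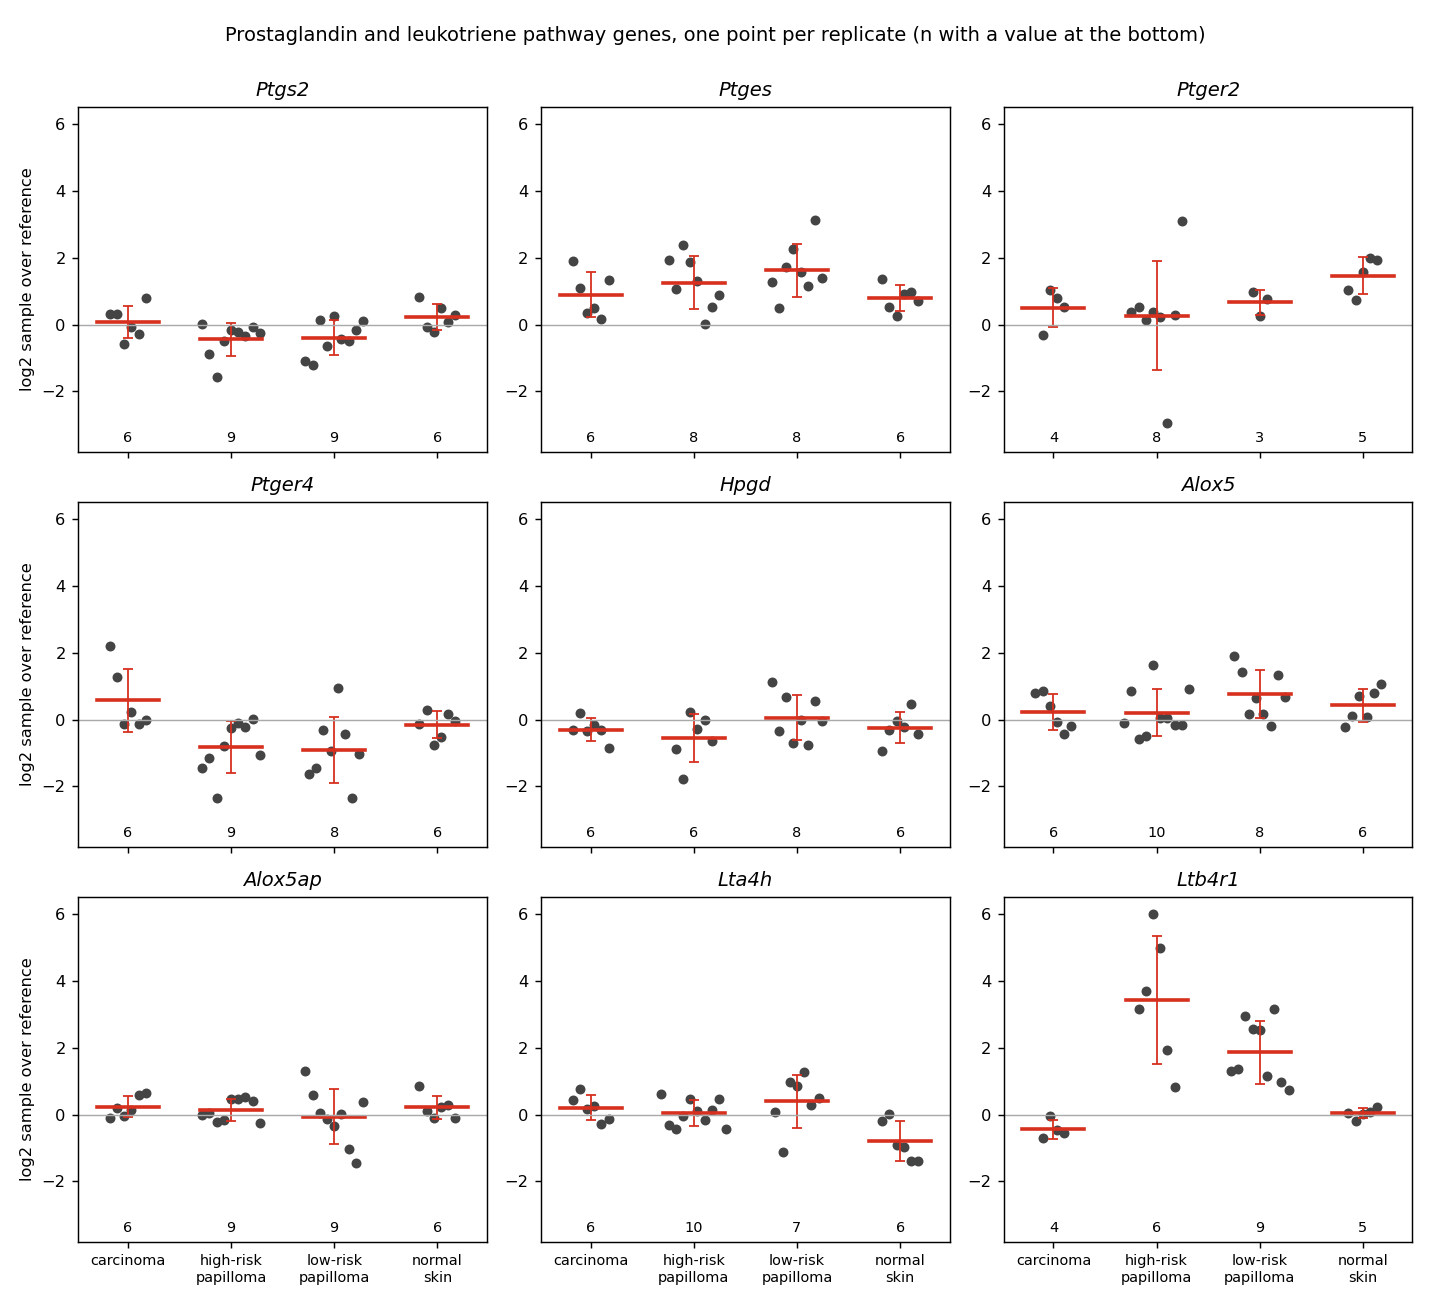
Levels of the 9 members with a probe (log2 sample over reference, vertical axes) in carcinomas, high-risk papillomas, low-risk papillomas and normal skin, one point per replicate; red lines are means, red bars 1 SD, and the digits at the bottom give the replicates with a value. Among the replicates with a value, papillomas lie above the other groups in Ltb4r1, and array sets B and E hold papillomas only. The ranges of Ptgs2, Hpgd, Alox5 and Alox5ap overlap between all groups.

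In the prostaglandin branch no member passed the test in any of the 6 comparisons. Ptgs2, the inducible cyclooxygenase, had a lowest, median and highest level of -0.57, 0.12 and 0.78 in 6 carcinomas, -1.56, -0.26 and 0.02 in 9 high-risk papillomas, -1.22, -0.43 and 0.26 in 9 low-risk papillomas and -0.23, 0.18 and 0.81 in 6 normal skins. Papillomas were the lower groups by their medians, with overlap. High-risk papillomas differed from normal skin by -0.66 ± 0.26 (SE, n = 9 and 6, limma adjusted p = 0.14), with 9 of 9 values below the normal mean, and low-risk papillomas by -0.62 ± 0.26 (SE, n = 9 and 6, adjusted p = 0.146), with 8 of 9 below it. The highest Ptgs2 levels among carcinomas and normal skins, 0.78 and 0.81, were those of the nearly identical carcinoma 6 and normal skin 1.

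Ptges, which makes prostaglandin E2, was above the reference in every replicate with a value. Its level ran from 0.18 to 1.91 in carcinomas (median 0.78, n = 6), 0.02 to 2.39 in high-risk papillomas (median 1.17, n = 8), 0.50 to 3.11 in low-risk papillomas (median 1.47, n = 8) and 0.27 to 1.37 in normal skin (median 0.81, n = 6). Low-risk papillomas exceeded normal skin by 0.83 ± 0.37 (SE, limma adjusted p = 0.165), with 7 of 8 above the normal mean, and this did not pass. Over 23 replicates Ptges had r = 0.68 with Ltb4r1, a description only, since both probes share arrays and array sets.

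Ptger4, the EP4 receptor for prostaglandin E2, was highest in carcinomas by its mean. Its lowest, median and highest levels were -0.13, 0.12 and 2.19 in 6 carcinomas, -2.33, -0.78 and 0.03 in 9 high-risk papillomas, -2.33, -0.99 and 0.94 in 8 low-risk papillomas and -0.76, -0.08 and 0.30 in 6 normal skins. Carcinomas 1 and 2, at 2.19 and 1.26, stood above the other 4, at -0.13 to 0.24. The carcinoma change was 1.47 ± 0.43 against low-risk papillomas (SE, n = 6 and 8, limma adjusted p = 0.0756) and 1.38 ± 0.42 against high-risk papillomas (SE, n = 6 and 9, adjusted p = 0.221), with 6 of 6 carcinomas above the papilloma mean each time. Without low-risk papilloma 6 the first was 1.73 and passed (adjusted p = 0.017), and without array set C, a setting chosen after the data were seen, the second was 2.06 and passed (adjusted p = 0.0469). With a block for the array sets they were 0.91 ± 0.50 (adjusted p = 0.754) and 0.58 ± 0.45 (adjusted p = 1). In set C, whose ratios were narrow, the 6 measured levels of Ptger4 in any group were all between -0.21 and 0.03.

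Ptger4 is expressed in epithelial cells and in macrophages. The macrophage mean ran from -0.46 to 0.96 in carcinomas, -2.67 to -0.22 in high-risk papillomas, -1.27 to 1.05 in low-risk papillomas and -1.43 to -0.51 in normal skin, and 1 of 18 tested macrophage markers was higher in carcinomas than in low-risk papillomas. Over 29 replicates Ptger4 had r = 0.51 with this mean, which covers 5 of 21 markers. It had r = 0.51 with the mean of 2 of 13 mast cell markers and r = 0.48 with that of 3 of 10 fibroblast markers. With the mean of 6 of 22 internal-organ genes it had r = 0.41, and with that of 4 of 18 keratinocyte markers r = -0.26. These are the markers measured in every replicate. The part of these cell types in the Ptger4 difference was not tested.

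Ptger2, the EP2 receptor, had a value in only 20 of 31 replicates and was not tested. It was at -0.31, 1.04, 0.78 and 0.51 in carcinomas 2, 3, 4 and 6, and at 0.98, 0.25 and 0.77 in low-risk papillomas 6, 7 and 10, which are those of set D. In normal skins 2 to 6 it was at 1.03, 0.74, 1.58, 2.00 and 1.92. High-risk papillomas ran from -2.95 in number 6 to 3.09 in number 10, while the other 6 lay between 0.15 and 0.53. Normal skin had the highest median, 1.58, against 0.64, 0.34 and 0.77 in carcinomas, high-risk and low-risk papillomas. Set A held 4 of these normal skins, at 0.74 to 2.00, and high-risk papilloma 10. In set D the normal skin was at 1.03, carcinomas at -0.31 to 1.04, the high-risk papilloma at 0.23 and low-risk papillomas at 0.25 to 0.98. Under the looser filter the Ptger2 changes ran from -1.19 to 0.24, with a smallest unadjusted p of 0.0622 from limma.

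Hpgd, the dehydrogenase that inactivates prostaglandins, did not pass the test in any comparison. Its lowest, median and highest levels were -0.86, -0.32 and 0.19 in 6 carcinomas, -1.77, -0.47 and 0.22 in 6 high-risk papillomas, -0.76, -0.03 and 1.11 in 8 low-risk papillomas and -0.95, -0.25 and 0.46 in 6 normal skins. None of its 6 changes had an unadjusted p under 0.05, and all groups overlapped.

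**Figure D4:**
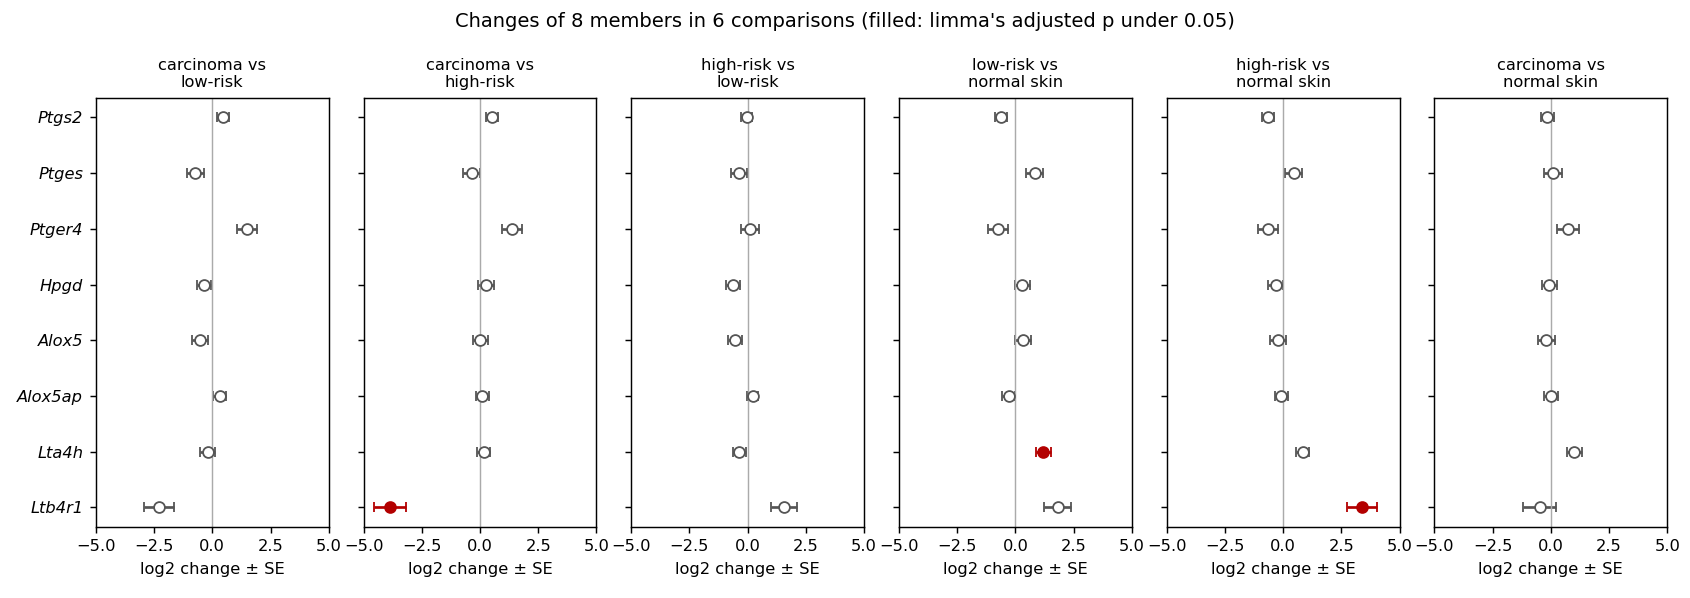
Log2 changes (points, horizontal axes) with their SE (bars) of the 8 tested members in the 6 comparisons, the first-named group over the second. Filled red points mark the 3 changes with limma's adjusted p under 0.05, which are Ltb4r1 at -3.86 and 3.38 and Lta4h at 1.20.

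The median change of the 8 tested members was -0.28 in carcinomas against low-risk papillomas, 0.13 in carcinomas against high-risk papillomas, -0.20 in high-risk against low-risk papillomas, 0.32 in low-risk papillomas against normal skin, -0.15 in high-risk papillomas against normal skin and -0.02 in carcinomas against normal skin. The medians of all tested probes were -0.01 to 0.02. In high-risk against low-risk papillomas 0 of 8 members and 0.64% of probes were called (0.328% higher and 0.312% lower), and the ranges of 0 members and 0.0582% of probes were apart. At an unadjusted p under 0.05 stood 2 of 8 members (16.1% of probes) in carcinomas against low-risk papillomas, 2 (10.6%) in carcinomas against high-risk papillomas, 1 (17.3%) in high-risk against low-risk papillomas, 4 (23.4%) in low-risk papillomas against normal skin, 3 (19.7%) in high-risk papillomas against normal skin and 1 (11.4%) in carcinomas against normal skin. The changes with a larger p ran from -0.73 to 0.73, with adjusted p-values of 0.307 to 0.996.

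Of 60 further genes of arachidonic acid release, eicosanoid synthesis, breakdown and reception, 50 had a probe on the first design and 45 were tested. None passed higher in carcinomas than in any other group. The secreted phospholipase Pla2g10, which releases fatty acids from phospholipids, was lower in all 3 tumour groups than in normal skin. Its level ran from -0.43 to -0.30 in 4 carcinomas, -1.36 to 0.38 in 6 high-risk papillomas, -1.41 to 1.29 in 9 low-risk papillomas and 1.04 to 2.51 in 5 normal skins. Its changes were -2.26 ± 0.43 (SE, limma adjusted p = 0.0102) in carcinomas, -2.45 ± 0.39 (adjusted p = 0.000977) in high-risk papillomas and -2.17 ± 0.36 (adjusted p = 0.000859) in low-risk papillomas. These 3 comparisons share the normal skins. With a block for the array sets they were -2.90 (adjusted p = 0.121) in carcinomas, -2.98 (adjusted p = 0.046) in high-risk papillomas and -2.76 (adjusted p = 0.329) in low-risk papillomas. Over all alternatives other than leaving out 1 replicate, the call was lost in 3 of 14, 2 of 14 and 3 of 15 fits in these groups. These fits include set D alone, which holds 1 normal skin.

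Akr1c18, which is known in mouse as a 20-alpha-hydroxysteroid dehydrogenase and also reduces prostaglandins, was highest in low-risk papillomas. Its level ran from -0.12 to 0.66 in 6 carcinomas, -0.14 to 1.09 in 10 high-risk papillomas, 0.63 to 2.22 in 8 low-risk papillomas and -0.03 to 1.01 in 5 normal skins. It was lower in carcinomas than in low-risk papillomas (log2 change -1.26 ± 0.27 SE, limma adjusted p = 0.019), lower in high-risk than in low-risk papillomas (-1.16 ± 0.24, adjusted p = 0.0182), and higher in low-risk papillomas than in normal skin (1.10 ± 0.28, adjusted p = 0.0168). The first was not called without carcinoma 1 (adjusted p = 0.0515) or 2 (0.0523), and the last without normal skin 6 (0.0578). Without the dye-swapped array none of the 3 was called (adjusted p = 0.0556, 0.056 and 0.0601), nor after scale normalization between arrays (0.087, 0.0561 and 0.0659). With a block for the array sets the 3 changes were -0.80 (adjusted p = 0.607), -0.58 (adjusted p = 1) and 0.44 (adjusted p = 0.945). Over all alternatives other than leaving out 1 replicate, the calls were lost in 5 of 13, 6 of 13 and 8 of 14 fits. Some of these fits used only part of the samples.

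The cytosolic phospholipase Pla2g4d was lower in low-risk papillomas, at -2.09 to -0.04, than in normal skin, at -0.33 to 2.37 (log2 change -1.68 ± 0.36 SE, limma adjusted p = 0.00458). The secreted phospholipase Pla2g2d was higher in high-risk papillomas, at 0.07 to 0.77, than in normal skin, at -0.71 to 0.03 (0.75 ± 0.20 SE, adjusted p = 0.0246), and higher in low-risk papillomas, at -0.42 to 0.86 (0.63 ± 0.20 SE, adjusted p = 0.047). Without 1 replicate the low-risk Pla2g2d call was lost in 11 of 15 fits, with changes of 0.55 to 0.71, and the high-risk call without normal skin 3, 5 or 6, with adjusted p-values of 0.0611 to 0.0801. The Pla2g2d calls were also lost with a block for the array sets, with changes of 0.62 (adjusted p = 0.339) in high-risk and 0.18 (adjusted p = 0.972) in low-risk papillomas, and the Pla2g4d change was then -0.94 (adjusted p = 0.854). In carcinomas against high-risk papillomas none of the 45 passed, and the smallest p-values were those of Cyp4f14 (-1.77 ± 0.42, adjusted p = 0.116), Alox15 (1.28 ± 0.31, adjusted p = 0.13) and Aloxe3 (-1.98 ± 0.58, adjusted p = 0.203). Without high-risk papilloma 7 the Cyp4f14 change passed (-1.91, adjusted p = 0.0448), while in 15 of the 16 fits that left out a replicate it did not. Under the other alternatives the changes ran from -2.74 to -0.87 for Cyp4f14, 0.66 to 1.81 for Alox15 and -2.89 to -0.99 for Aloxe3. Cyp4f14 is a cytochrome that oxidises leukotriene B4, and Aloxe3 is an epidermal lipoxygenase of the skin barrier. Of the 45, 1 was called in carcinomas against low-risk papillomas (lower), where 1.17% of all probes were called, and 1 in high-risk against low-risk papillomas (lower), where 0.64% were. In low-risk papillomas against normal skin 4 were called, 2 higher and 2 lower, where 7.65% of probes were called. In high-risk papillomas against normal skin 2 were called, 1 higher and 1 lower, where 5.09% of probes were, and in carcinomas against normal skin 1 was called (lower), where 1.15% of probes were. The counts against normal skin in low-risk and high-risk papillomas lie near the shares of all probes. The median change of the 45 was -0.02 to 0.12 over the 6 comparisons.

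Among the members themselves, Ptger4 had r = 0.53 with Ptgs2 (n = 28 replicates) and r = -0.59 with Ltb4r1 (n = 23). Among all named genes the pattern most like that of Ptges was that of Hebp2 (r = 0.88, n = 27) and Acp5 (r = 0.857, n = 27). For Lta4h these were Prim2 (r = 0.874, n = 28) and Clcn3 (r = 0.864, n = 28), for Ptger4 Dnah3 (r = 0.818, n = 29) and Angel2 (r = 0.808, n = 27), and for Ptgs2 Slc29a3 (r = 0.75, n = 28) and Vmn1r44 (r = 0.744, n = 27). Alox5 was most like A430105J06Rik (r = 0.792, n = 30) and Ipmk (r = 0.784, n = 27), Alox5ap like Nap1l2 (r = 0.794, n = 30) and Serpina1e (r = 0.787, n = 29), and Hpgd like 1700122H20Rik (r = 0.746, n = 26) and Apeh (r = 0.723, n = 26). Ltb4r1 and Ptger2 had fewer than the 25 shared replicates that were asked for. These correlations are Pearson's r over the labelled replicates, which share arrays, sets and the reference, and they describe the levels only.

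In the 10 papillomas without a risk label, Ltb4r1 was above the reference in 10 of 10, with a lowest, median and highest level of 0.68, 1.99 and 3.05. Ptges was above it on its first probe in 10 of 10 (0.37, 1.80 and 2.41) and on its second in 8 of 10 (-0.81, 0.94 and 3.50). Ptgs2 was above it on both probes in every papilloma with a value, at 0.39 to 5.22 (median 1.87, n = 9) and at 0.14 to 2.98 (median 0.75, n = 10), and unknown papilloma 2 was highest on both. The labelled papillomas had Ptgs2 levels of -1.56 to 0.26 on the first design's probe, which is another probe on another design, so the levels were not compared.

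Ptger4 ran from -0.48 to 4.98 with a median of 1.41 and was highest in unknown papilloma 4. Hpgd was the one member mostly below the reference, with medians of -1.24 and -0.86 on its probes and 2 of 10 and 3 of 9 papillomas above it, and it was lowest in unknown papilloma 3 on both, at -3.99 and -3.88. Lta4h had medians of 0.36 and 0.40 on its probes, Ptger2 of 0.59, Alox5 of 0.21 and Alox5ap of 0.20. The 2 probes of a gene went together most closely for Hpgd (r = 0.83, n = 9 papillomas) and Ptgs2 (r = 0.75, n = 9), and less for Lta4h (r = 0.53, n = 10) and Ptges (r = 0.47, n = 10). The largest difference between the 2 probes in 1 papilloma was 1.58 for Hpgd, 2.26 for Ptgs2, 1.56 for Lta4h and 2.23 for Ptges.

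**Figure D5:**
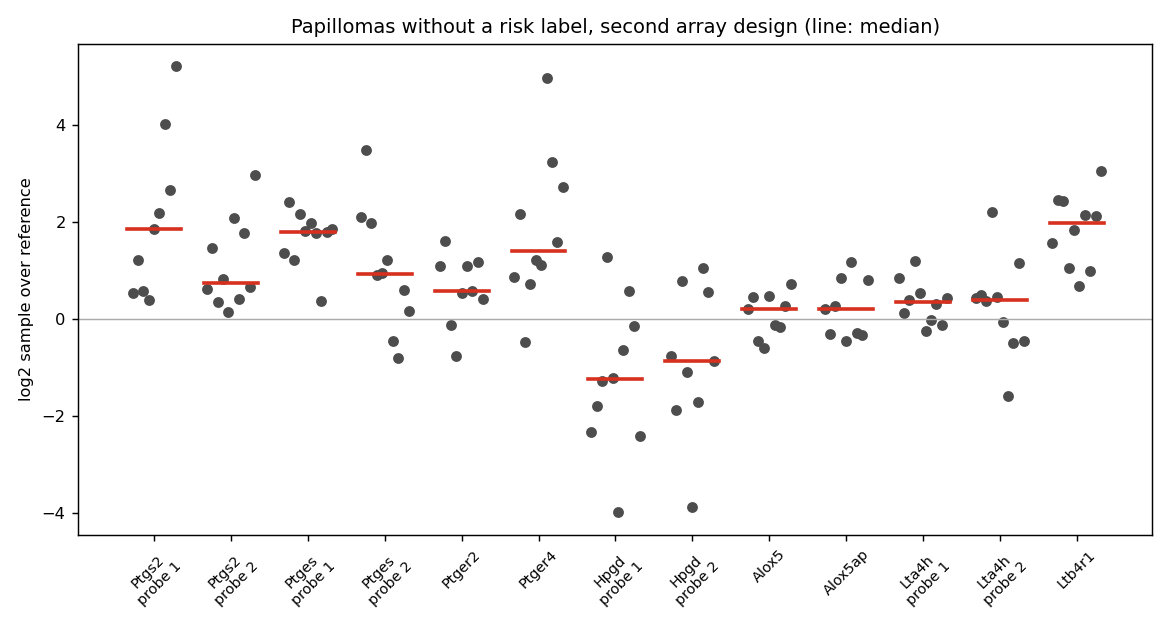
Levels of the 13 member probes (log2 sample over reference, vertical axis) in the 10 papillomas without a risk label on the second array design, one point per papilloma, with the median as a red line. All 10 values of Ltb4r1 lie above 0, between 0.68 and 3.05, and most values of Hpgd lie below it.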

How the data were processed

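RNA of mouse skin and skin tumours was hybridised on 42 2-colour arrays against a common reference RNA. The authors deposited log2 ratios between the channels of each array. Their normalization and spot filters are not given in the sources used here. Neither the log base nor the direction is stated. Base 2 was taken because values reached 13.574 and 15.02 in size on the 2 designs. To give sample over reference, each array was negated except the one labelled as dye-swapped. This direction is likely, since keratinocyte genes lay below internal-organ genes as deposited on 31 of 31 and 10 of 10 arrays with the reference in Cy5. Same-dye arrays correlated at 0.209 or more. Array medians ran from -0.23 to 0.32 and from -0.28 to 0.04 before centring. The 2 arrays of 1 low-risk tumour were averaged and centred again. The mean was listed under database number range 46, that of the array with the reference in Cy5. The title of the swapped array has a number of another range. The title and source name of this swapped array give different numbers.

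Probes were named from the platform annotation, in which 16076 of 21997 had 1 symbol, 288 several and 5633 none. On the second design these were 26926, 203 and 9795 of 36924. Testing asked for values in 3 or more replicates per group and in 70% of the 31, with 1 probe per symbol, the one with most values. Limma 3.58.1 in R 4.3.3 fitted the 4 groups in 1 model over 18904 probes, ignoring empty values, with Benjamini-Hochberg adjustment and a threshold of 0.05. The fit was tested on simulated data. Their noise was independent between arrays, with no shifts by array set or database number, so that test does not bear on these. Tables and figures used numpy 2.4.6, pandas 2.3.3 and matplotlib 3.10.9. Array sets came from complete-linkage clustering of the pattern of empty probes, with the number of sets fixed at 5 beforehand. The number of arrays limits the precision.

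All members, every change of theirs with an unadjusted p under 0.05, the called members of the wider list or otherwise its 3 smallest p-values, and for each member the 2 genes with the highest r over at least 25 replicates were named. The members, lists and tests were chosen with earlier results of these data known. Alternatives were other scalings, filters, blocks, weights and samples.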

Additional observations from a re-analysis of the deposited data

How the results depend on the processing

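The counts of called probes were 221 in carcinomas against low-risk papillomas, 8 in carcinomas against high-risk papillomas, 121 in high-risk against low-risk papillomas, 1447 in low-risk papillomas against normal skin, 963 in high-risk papillomas against normal skin and 218 in carcinomas against normal skin. The looser filter, the mean of a gene's probes and the shared tumour code as a random block left all of these counts within 1.5 times and the members called as before. With a block for the sets defined by empty probes, the counts were, in the same sequence of comparisons, 1, 0, 0, 5, 12 and 10 probes, the zeros with 455 and 307 probes at an unadjusted p under 0.05, and 0 members were called in carcinomas against high-risk papillomas, low-risk papillomas against normal skin and high-risk papillomas against normal skin, with 1, 0 and 0 members under 0.05 before adjustment. In set D alone, chosen after the data were seen, each of these 3 comparisons has an arm of 1 sample (1 high-risk papilloma, 1 normal skin), so its 0 members called say nothing about stability. There Ptgs2 (0.05) and Pla2g2d (-0.04) turned sign in 3 low-risk papillomas against 1 normal skin. With the database number range as a block the count of probes was 30 in carcinomas against high-risk papillomas, 50 in high-risk against low-risk papillomas, 69 in high-risk papillomas against normal skin and 19 in carcinomas against normal skin, and 0 members were called in low-risk papillomas (5 at an unadjusted p under 0.05) and in high-risk papillomas (3) against normal skin. Range 51 alone gave 0 probes in high-risk against low-risk papillomas (2772 at an unadjusted p under 0.05), 5 in low-risk papillomas against normal skin, 5 in high-risk papillomas against normal skin and 3 in carcinomas against normal skin, and 0 members in carcinomas against high-risk papillomas (2), low-risk papillomas against normal skin (1) and high-risk papillomas against normal skin (2). That range held 2 normal skins.

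Equal spread of the arrays gave 119 probes in carcinomas against low-risk papillomas, 66 in carcinomas against high-risk papillomas, 36 in high-risk against low-risk papillomas, 1530 in high-risk papillomas against normal skin and 706 in carcinomas against normal skin. It called 1 member in carcinomas against low-risk papillomas (Ltb4r1) and 2 each in low-risk and high-risk papillomas against normal skin (Ltb4r1 and Lta4h). Array weights gave 1559, 373, 1256, 4160, 3962 and 3455 probes in the 6 comparisons as first listed, and 2 members in carcinomas against low-risk papillomas, 2 in low-risk papillomas against normal skin, 2 in high-risk papillomas against normal skin and 1 in carcinomas against normal skin. Fits of only the groups compared gave 1 probe in carcinomas against high-risk papillomas (2371 at an unadjusted p under 0.05) and 0 in high-risk against low-risk papillomas (2175), 604 in low-risk papillomas against normal skin and 691 in carcinomas against normal skin, with 1 member in carcinomas against low-risk papillomas and 0 in carcinomas against high-risk papillomas (2). The 5583 probes measured in every replicate hold no member and gave 0 calls in carcinomas against high-risk papillomas (690), 602 in low-risk papillomas against normal skin, 486 in high-risk papillomas against normal skin and 101 in carcinomas against normal skin. Without the dye-swapped array 0 members were called in low-risk papillomas against normal skin (3), without normal skin 1 and carcinoma 6 the members called stayed as before while the count in carcinomas against normal skin was 488, and without set C, chosen after the data were seen, 2 members (Ltb4r1 and Ptger4) were called in carcinomas against high-risk papillomas. The causes of these shifts were not tested.

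Leaving out 1 replicate gave 55 to 733 probes and 0 to 1 members in carcinomas against low-risk papillomas, 0 to 30 and 0 to 1 in carcinomas against high-risk papillomas, 60 to 716 and 0 to 1 in high-risk against low-risk papillomas, 739 to 2000 and 0 to 2 in low-risk papillomas against normal skin, 365 to 1405 and 1 to 2 in high-risk papillomas against normal skin, and 70 to 550 probes in carcinomas against normal skin. Of 387 such changes of named genes 356 kept their direction and side of the threshold, 26 lost the call, 5 gained one and 0 turned sign. Of 357 changes under the other alternatives 275 kept both, 60 lost the call, 20 gained one and 2 turned sign.

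Replicate numbers did not pair the samples: deviations of same-numbered samples correlated at a median of -0.01 over 37 pairs and those of other pairs at 0.01 over 317. With the number as a replicate block 1 member was called in carcinomas against low-risk papillomas (Ltb4r1, -2.93, adjusted p = 0.0329), and the probe counts were 34 in high-risk against low-risk papillomas and 933 in low-risk papillomas against normal skin. There Lta4h lost its call (1.23, adjusted p = 0.0606) and Ltb4r1 gained one (2.51, adjusted p = 0.0185).

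The number of arrays and the empty spots limit these values: Ltb4r1 rests on 24 and Ptger2 on 20 of 31 replicates. No signal over background was available to the fits, so a low ratio and a dim spot cannot be told apart.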
